A study of Homo sapiens with 8 samples.

Results

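The genes of MHC class I antigen presentation were followed by RNA sequencing in endothelial cells made from WTC-TJP1, an established line of human induced pluripotent stem cells. The 9 genes were taken by name from the deposited table of 30386 genes: HLA-B, HLA-C, HLA-E, HLA-F, B2M, TAP1, TAP2, TAPBP and NLRC5. The table covers 4 samples of endothelial cells (iEC) and 4 of retinal endothelial cells (iREC), all at passage 1, with samples lettered C to F in each group. Both groups come from this single line, with the iREC differentiation described as matched to that of the iEC, and the labels give no treatment or further allele for either. The labels do not say whether samples of a group came from separate cultures, so p-values measure the spread between these samples, which may be technical. Means are given with the SD over 4 samples, and log2 fold changes, always iREC over iEC, with their SE.

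MHC class I molecules show short peptides from inside the cell to CD8 T cells and natural killer cells. Proteasomes cut proteins into peptides, the transporter TAP carries them into the endoplasmic reticulum, and tapasin and its partners load them onto a heavy chain paired with beta-2 microglobulin. Interferons raise the pathway, in part through IRF1, and NLRC5 acts as its transactivator at the promoters. In blood vessels, endothelial cells display class I to circulating lymphocytes.

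Library totals were 14877502 to 16971865 counts for iEC and 13739364 to 15987839 for iREC. Levels are in CPM, counts scaled to a common library size, and 3 counts, the floor of detection, equalled 0.177 to 0.218 CPM. Of the 12 endothelial markers on the list, all 12 were in the table, and their summed level was 7537 to 9557 CPM in iEC and 4558 to 10230.3 CPM in iREC, where the lowest was sample F. The sum hides opposite changes: edgeR called 3 of the 12 higher and 5 lower in iREC, against 13.2% and 11.7% of all tested genes. EMCN rose from 4.20 ± 1.89 to 431 ± 156 CPM, and PECAM1 fell from 2229 ± 286 to 752 ± 175 CPM. Mural and mesenchymal markers summed to 252 to 517 CPM in iEC and 1321 to 5753 CPM in iREC, and epithelial markers to 391 to 1173 and 302 to 4906 CPM, with sample F highest in each group. Of 10 tested mural and mesenchymal genes, 3 were called higher and 1 lower. The lower one was RGS5, at 115 ± 46.1 CPM in iEC and 43.7 ± 18.9 in iREC. Pluripotency markers summed to 44.2 to 112 CPM in iEC and to 91.4 to 549.9 CPM in iREC, with F the highest in iREC. LIN28A alone had 479.8 CPM in iREC F. Of 4 tested pluripotency genes, 2 were called higher and 1 lower. The lower one was DPPA4, at 46.3 ± 11.6 CPM in iEC and 25.5 ± 4.72 in iREC. POU5F1, NANOG, SOX2 and TDGF1 were too low to be tested, and their highest group mean was 0.651 CPM, for POU5F1 in iREC. Leukocyte markers were near 0, at 0.5 to 1.24 CPM in iEC and 2.54 to 4.11 CPM in iREC summed over 10 genes, with CD14, CD68, SPI1, LYZ and TYROBP at or under 3 counts in every sample. PTPRC, the leukocyte antigen CD45, had 0 counts in all iEC samples and 42, 17, 13 and 27 counts in iREC C, D, E and F. The part of these marker differences in the values below was not tested. In bulk samples, fewer cells expressing a gene and less RNA per cell cannot be told apart.

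None of the class I genes was called different between iREC and iEC by the edgeR quasi-likelihood test. Of the 9 genes, 8 passed the filter on low counts, and 0 of these 8 were called at an adjusted p under 0.05, against 25.0% of all 15330 tested genes. At an unadjusted edgeR p under 0.05 there were also 0, against 5799 of the 15330 tested genes. By limma-voom 0 of the 8 were called, against 3773 of the 15330. DESeq2 called 1 of 9, HLA-F, against 23.2% of the genes it tested. The median log2 fold change of the 8, iREC over iEC, was 0.12, against 0.02 over all tested genes. It was above 0 for 7 of the 8 and for 7912 of the 15330 tested genes. Not overlapping between the groups in CPM was a property of 29.1% of all tested genes and of 0 of these 8. Leaving out iEC F changed this: without it, 2 of the 8 were called (HLA-B and TAPBP), against 23.0% of all genes, and the median log2 fold change of the 8 was 0.48, against 0.02 over all genes. iEC F was the highest iEC sample for all 8, so leaving it out lowers each iEC mean. Without iEC C the median of the 8 was -0.03, without iEC D 0.00 and without iREC F 0.05, with 0 members called in each. Of all genes, 19.7%, 22.9% and 26.7% were called in these fits.

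**Figure D1:**
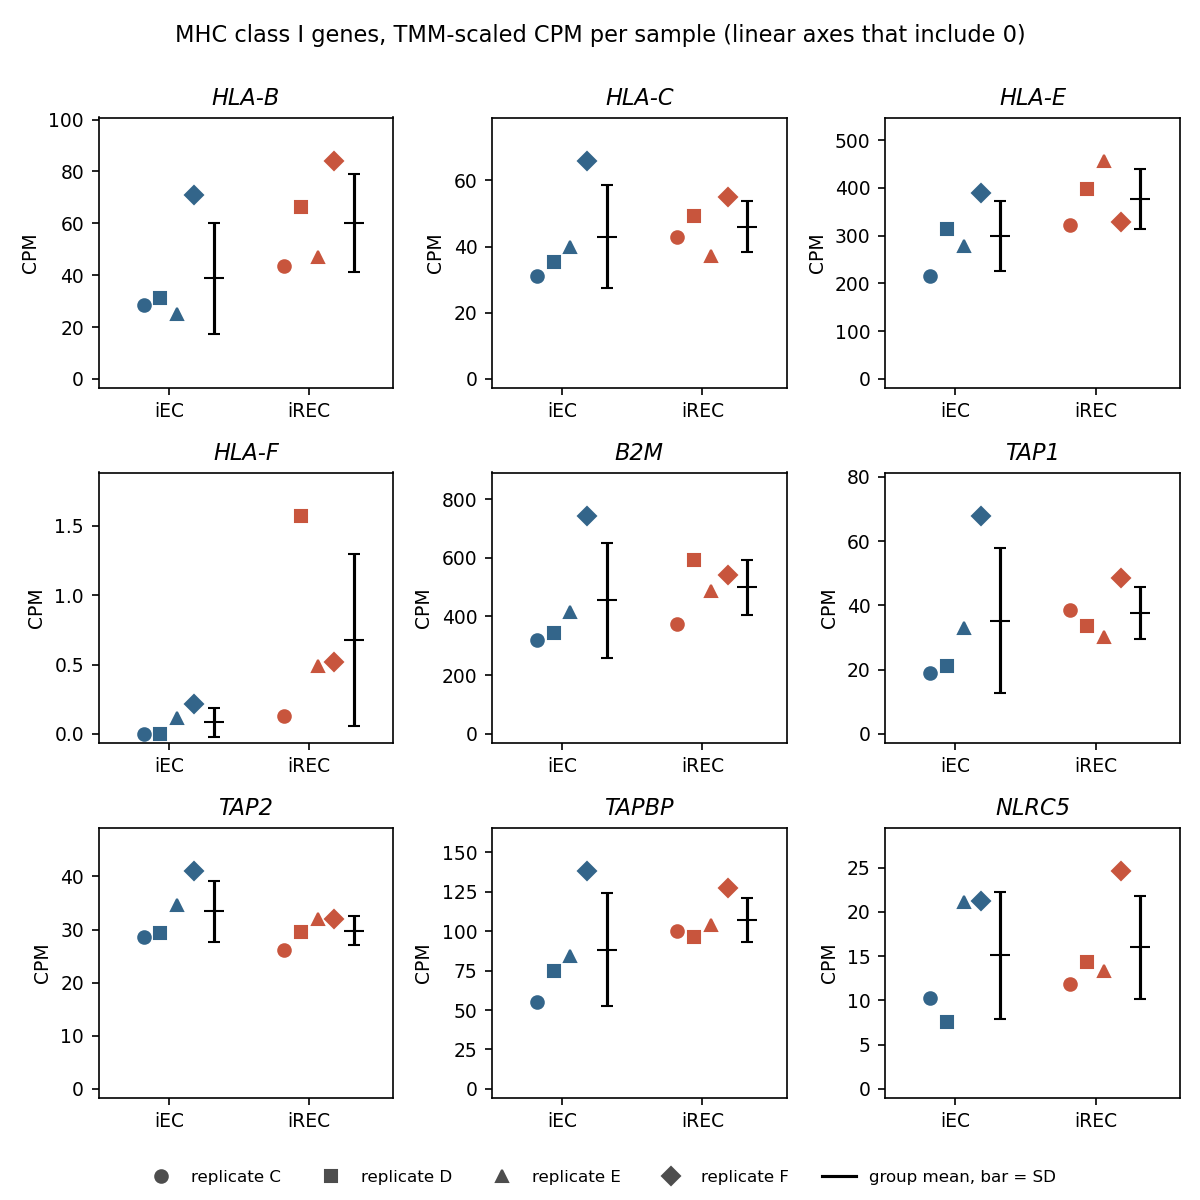
CPM on libraries scaled by TMM (linear axes that include 0) for the 9 class I genes in each of the 4 iEC and 4 iREC samples, with the marker shape giving the replicate letter and the black bars the group mean and SD. In every panel iEC F is the highest iEC sample, and in all panels the groups overlap.

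The promoters are shown because they carry the letters that class I transcription factors read. Of the 9 genes, 7 matched the RefSeq promoter table (GRCh38.p14). The starts used are the RefSeq ones, and the windows of HLA-F, TAP1 and TAPBP lie inside the deposited gene coordinates given below. The 200 bases upstream of the annotated start are given 5′ to 3′ on the gene's strand, with matches on either strand in capitals, for HLA-B at chr6:31357180-31357379 (minus strand), HLA-C at chr6:31272093-31272292 (minus strand), HLA-F at chr6:29723234-29723433 (plus strand), B2M at chr15:44711317-44711516 (plus strand), TAP1 at chr6:32853705-32853904 (minus strand), where the first of its 2 listed starts is used, and TAPBP at chr6:33314079-33314278 (minus strand).
HLA-B: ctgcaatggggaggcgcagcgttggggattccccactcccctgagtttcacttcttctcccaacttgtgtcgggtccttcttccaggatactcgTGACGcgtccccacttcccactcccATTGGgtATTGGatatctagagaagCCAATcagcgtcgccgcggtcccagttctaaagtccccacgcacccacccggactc
HLA-C: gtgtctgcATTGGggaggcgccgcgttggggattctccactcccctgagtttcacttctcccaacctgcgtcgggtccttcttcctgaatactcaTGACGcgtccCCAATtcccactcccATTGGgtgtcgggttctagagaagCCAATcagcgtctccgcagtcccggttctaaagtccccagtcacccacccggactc
HLA-F: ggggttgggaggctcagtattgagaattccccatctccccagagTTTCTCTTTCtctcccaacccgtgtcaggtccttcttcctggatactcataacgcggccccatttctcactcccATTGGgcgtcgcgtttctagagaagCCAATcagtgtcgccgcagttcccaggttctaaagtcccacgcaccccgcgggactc
B2M: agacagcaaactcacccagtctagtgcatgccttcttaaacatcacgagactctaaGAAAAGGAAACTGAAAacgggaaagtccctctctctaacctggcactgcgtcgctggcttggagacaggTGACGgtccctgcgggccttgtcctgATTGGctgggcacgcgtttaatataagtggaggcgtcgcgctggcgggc
TAP1: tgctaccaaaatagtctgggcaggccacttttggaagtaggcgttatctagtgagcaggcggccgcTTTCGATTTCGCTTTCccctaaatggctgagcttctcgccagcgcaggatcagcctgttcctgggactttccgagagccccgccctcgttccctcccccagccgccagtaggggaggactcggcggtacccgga
TAPBP: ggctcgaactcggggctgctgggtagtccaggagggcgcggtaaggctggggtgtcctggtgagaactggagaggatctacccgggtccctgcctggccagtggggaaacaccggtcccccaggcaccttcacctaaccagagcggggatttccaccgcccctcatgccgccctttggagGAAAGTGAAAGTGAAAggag
The motifs searched were the interferon response core (GAAA, any 2 bases, GAAA), which interferon regulatory factors bind, CCAAT, bound by NF-Y, and TGACG, a core bound by CREB and ATF factors. The interferon response core was found in the windows of HLA-F, B2M, TAP1, TAPBP and TAP2, and in 2.4% of all 35116 promoter windows of this length. HLA-B and HLA-C had no exact match. Variants of the core were not searched, so this does not show that they lack such an element. In B2M, TAP1 and TAPBP a pair of matches overlapped, so that the capitals run together. CCAAT was found in HLA-B, HLA-C, HLA-F and B2M, against 28.0% of all windows, and TGACG in HLA-B, HLA-C, B2M and TAP2, against 18.4%. A match of letters is a description of the window and not a measured binding site.

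The classical heavy chains HLA-B and HLA-C present peptides to CD8 T cells. HLA-B (ENSG00000234745, GRCh38 chromosome 6, 31269491 to 31357188) had 28.4, 31.1, 25.2 and 70.8 CPM in iEC C, D, E and F, and 43.4, 66.3, 46.9 and 84.0 CPM in the iREC samples of the same letters, an order of C to F kept below. Each iREC sample was above iEC C, D and E, and iEC F lay above all iREC samples but F. The means were 38.9 ± 21.4 and 60.1 ± 18.8 CPM, a fold of 1.55 (95% interval 0.894 to 2.69; log2 0.63 ± 0.35; adjusted p by edgeR 0.224). Without iEC F the log2 fold change was 1.09 and HLA-B was called (edgeR adjusted p 0.015), and without F in both groups, an alternative added after the values were seen, it was 0.89 (edgeR adjusted p 0.0113; 27.4% of all genes called). Omitting any of the other 7 samples brought no call (adjusted p up to 0.444). With the replicate letter as a block, though the labels state no pairing by letter, the log2 fold change was 0.71 and HLA-B was called (edgeR adjusted p 0.0294).

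HLA-C (ENSG00000204525, chromosome 6, 31268749 to 31272130) had 31.2, 35.2, 39.9 and 65.8 CPM in iEC C, D, E and F, and 42.8, 49.1, 37.0 and 55.0 CPM in iREC. The iREC samples fell within the iEC range. Its fold was 1.07 (95% interval 0.737 to 1.55; edgeR adjusted p 0.8). The gene models of HLA-B and HLA-C overlap on the same strand over 2640 bases in GENCODE release 29, and class I heavy chains share sequence, so how reads were divided between their rows is uncertain. Of the reads in these 2 rows, HLA-C held 52.4%, 53.1%, 61.3% and 48.2% in iEC C, D, E and F and 49.6%, 42.6%, 44.1% and 39.6% in iREC. The groups overlapped, and the means of 53.7% ± 5.48 and 44.0% ± 4.22 had a two-sided exact permutation p of 0.0571, or 0.114 adjusted over 4 such shares, where 4 against 4 samples allow no p below 0.0286.

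HLA-E presents leader peptides of other class I chains to the natural killer cell receptor CD94/NKG2A. HLA-E (ENSG00000204592, chromosome 6, 30489467 to 30494205) had 215, 314, 279 and 389 CPM in iEC C, D, E and F, and 323, 398, 456 and 329 CPM in iREC. Every iREC sample lay above iEC C, D and E, but iEC F was above iREC C and F. The fold was 1.26 (95% interval 0.93 to 1.71; edgeR adjusted p 0.244), and no alternative brought the adjusted p under 0.05 (range 0.0686 to 0.513). HLA-E supplied most reads of the 4 heavy chains described here. It held 78.3%, 82.6%, 81.0% and 74.0% of the summed HLA-B, HLA-C, HLA-E and HLA-F counts in iEC C, D, E and F, and 78.9%, 77.3%, 84.4% and 70.2% in iREC. That sum averaged 381 ± 106 CPM in iEC and 483 ± 57.5 in iREC, which is given without a test because it adds up chosen genes.

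HLA-F, a heavy chain with restricted expression, was at the edge of detection. HLA-F (ENSG00000204642, chromosome 6, 29722775 to 29738528) had 0, 0, 2 and 3 counts in iEC C, D, E and F, and 2, 22, 8 and 8 counts in iREC. All iEC samples were at or under the floor, so iREC, at 0.676 ± 0.619 CPM, was at least 3.49-fold higher than 3 counts per iEC library. iREC C overlapped the iEC samples, and iREC D alone held 22 of the 40 iREC counts. The gene did not pass the filter. DESeq2 called it (adjusted p 0.0412), and so did the authors' deposited table (adjusted p 0.0424; 16.3% of its genes). By edgeR without the filter, which called 12.8% of all genes, it was not called (adjusted p 0.0837). A row for its antisense transcript, HLA-F-AS1, overlaps it at a mean of 0.17 CPM, and reads of the pair cannot be separated if counting ignored strand.

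B2M, the light chain shared by all these heavy chains, was abundant in both groups. B2M (ENSG00000166710, chromosome 15, 44711487 to 44718877) had 321, 343, 415 and 742 CPM in iEC C, D, E and F, and 376, 594, 487 and 539.7 CPM in iREC. iREC D, E and F lay between iEC E and iEC F, and iREC C lay below iEC E. The fold was 1.1 (95% interval 0.718 to 1.68; log2 fold change 0.14 ± 0.27; edgeR adjusted p 0.755), and its sign changed without iEC C (log2 fold change -0.019). On the deposited FPKM scale, which is per gene length, these 4 heavy chains summed to 1.82 ± 0.344 times B2M in iEC and 2.04 ± 0.275 times in iREC, with single samples from 1.48 to 2.30 and from 1.79 to 2.29. This ratio depends on the deposited lengths, 6079 bases for B2M and 2975 for HLA-E. In CPM, mean B2M was above the mean heavy chain sum, at 455 against 381 in iEC and 499 against 483 in iREC.

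TAP1 and TAP2 form the peptide transporter. TAP1 (ENSG00000168394, chromosome 6, 32845209 to 32853978) had 19.1, 21.1, 33.1 and 67.8 CPM in iEC C, D, E and F, a 3.54-fold range, and 38.7, 33.5, 30.1 and 48.6 CPM in iREC, a 1.62-fold range. The iREC samples lay inside the iEC range. The fold was 1.07 (95% interval 0.592 to 1.93; edgeR adjusted p 0.879), and the log2 fold change of 0.10 ran from -0.13 without iEC C to 0.62 without iEC F. TAP2 (ENSG00000204267, chromosome 6, 32821833 to 32838780) varied least of the 8 within each group. It had 28.6, 29.3, 34.6 and 41.0 CPM in iEC C, D, E and F, and 26.1, 29.5, 31.9 and 31.9 CPM in iREC. It was the only one of the 8 with a negative log2 fold change, -0.16 ± 0.15 (fold 0.896, 95% interval 0.709 to 1.13; edgeR adjusted p 0.482).

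TAPBP encodes tapasin, which bridges TAP and the empty heavy chain. TAPBP (ENSG00000231925, chromosome 6, 33299694 to 33314387) had 55.2, 74.8, 84.5 and 138 CPM in iEC C, D, E and F, and 100.3, 96.1, 104 and 127 CPM in iREC. Each iREC sample was above iEC C, D and E and below iEC F. The fold was 1.21 (95% interval 0.819 to 1.80; edgeR adjusted p 0.456). Without iEC F the log2 fold change went from 0.28 to 0.58 and TAPBP was called (edgeR adjusted p 0.0463), and without F in both groups it was 0.49 and not called (edgeR adjusted p 0.0639).

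NLRC5, the class I transactivator, was low. NLRC5 (ENSG00000140853, chromosome 16, 56989485 to 57083531) had 10.3, 7.57, 21.1 and 21.2 CPM in iEC C, D, E and F, and 11.8, 14.3, 13.3 and 24.6 CPM in iREC. The iEC samples formed a low and a high pair, and iREC F was the highest of all 8. The fold was 1.06 (95% interval 0.592 to 1.91; edgeR adjusted p 0.890), and the log2 fold change of 0.09 became -0.20 without iREC F.

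**Figure D2:**
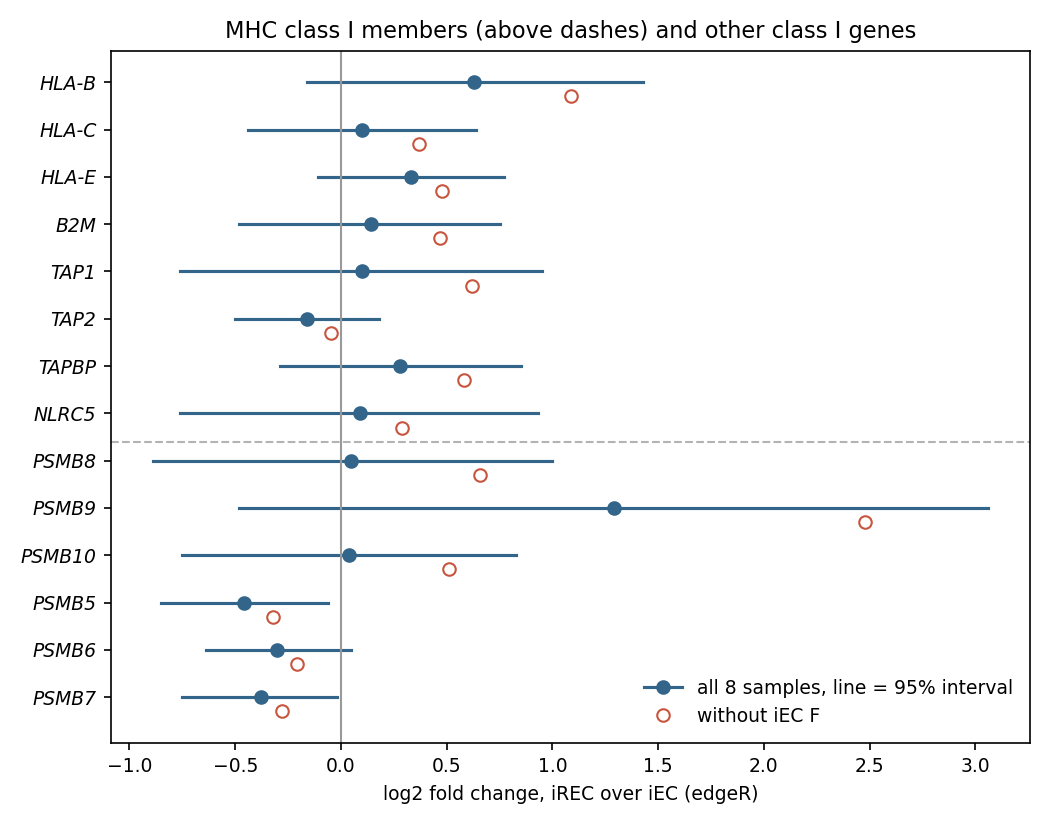
Log2 fold change of iREC over iEC by edgeR for the 8 tested class I genes (above the dashes) and 6 related genes, with filled points and 95% intervals for all 8 samples and open points for the fit without iEC F. The intervals of all 8 members include 0. Each open point lies to the right of its filled point, up to 2.48 for PSMB9. iEC F was the highest iEC sample for every gene shown, so omitting it lowers each iEC mean.

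Per deposited gene length, the order of mean levels was the same in both groups apart from HLA-B and HLA-C. The order of HLA-E and B2M depends on those lengths. In CPM, B2M had the higher mean, at 455 against 299 in iEC and 499 against 376 in iREC. On the deposited FPKM scale the means in iEC were 100.4 ± 26.4 for HLA-E, 75.0 ± 34.2 for B2M, 17.5 ± 7.5 for TAPBP, 17.2 ± 6.68 for HLA-C, 12.8 ± 7.4 for HLA-B, 7.38 ± 4.91 for TAP1, 5.20 ± 1.02 for TAP2, 1.22 ± 0.594 for NLRC5 and 0.0194 ± 0.0244 for HLA-F. HLA-E and B2M stood apart from the rest in every sample. The neighbours HLA-E and B2M, and TAPBP, HLA-C, HLA-B, TAP1 and TAP2 in turn, differed by less than the sum of their SDs in iEC, and TAP2, NLRC5 and HLA-F by more. In iREC, HLA-E (125 ± 20.2) and B2M (81.0 ± 15.1) led again, and HLA-B, at 19.5 ± 6.23, stood between TAPBP (20.8 ± 2.83) and HLA-C (18.1 ± 3.18). TAP1 (7.74 ± 1.72), TAP2 (4.60 ± 0.441), NLRC5 (1.27 ± 0.477) and HLA-F (0.153 ± 0.14) followed. There HLA-E and B2M differed by more than the sum of their SDs, and TAPBP, HLA-B and HLA-C by less.

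Within the iEC group the 8 tested genes had the same highest sample. iEC F was the highest iEC sample for all 8, where it was the highest for 32.4% of all tested genes. In iREC, sample F was the highest for 5 of the 8, against 33.1% of all tested genes. Averaged over the 8 genes, log2 CPM relative to each gene's mean was -0.56, -0.42, -0.11 and 0.58 in iEC C, D, E and F, and -0.09, 0.16, 0.03 and 0.40 in iREC. The 4 iREC values lay inside the range of the iEC values. Over the 8 samples, the tested protein-coding genes outside the lists with the smallest root-mean-square difference from this mean profile were PACS1 (0.104 log2 units), IL17RC (0.109), SPAG16 (0.127), DECR1 (0.129) and PNRC1 (0.133). Of all 15330 genes ranked this way, HLA-C, TAPBP and B2M were ranked 4, 5 and 7, and HLA-B 1703, but these genes also made up the mean.

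**Figure D3:**
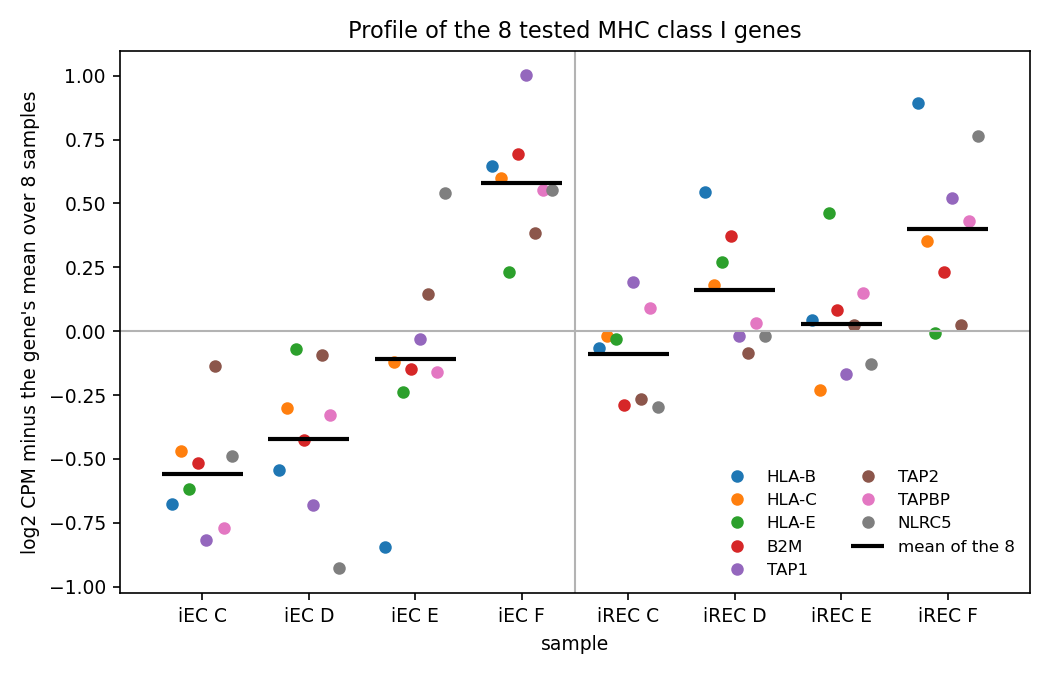
Log2 CPM of each of the 8 tested class I genes minus that gene's mean over the 8 samples (coloured points), by sample, with the mean of the 8 genes as a black bar. The bar is lowest in iEC C, at -0.56, and highest in iEC F, at 0.58, and the 4 iREC samples lie between -0.09 and 0.40.

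iEC F was the highest iEC sample for 26 of 29 tested interferon-stimulated genes and for 6 of 7 immunoproteasome and activator genes. It was also the highest for 3 of 3 constitutive catalytic proteasome subunits, 4 of 6 other class I heavy chains and 6 of 12 endothelial markers. The interferon-stimulated list summed to 629.8, 681, 716 and 1344 CPM in iEC C, D, E and F, and to 1340.5, 1621, 1665 and 1431 CPM in iREC. Mural and mesenchymal markers were also highest in iEC F for 8 of 10 tested genes and summed to 281, 258, 252 and 517 CPM in iEC C, D, E and F, and epithelial markers were highest there for 5 of 5 and summed to 447, 391, 673 and 1173 CPM. No member of those lists was at 0 in every sample. The total of iEC F, 14877502, was the lowest of the iEC group and it had the fewest genes with a count, 20976 against 22430 to 23039. The part of these differences in the class I levels of iEC F was not tested. Leukocyte markers were lowest in iEC F, at 0.5 CPM summed.

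**Figure D4:**
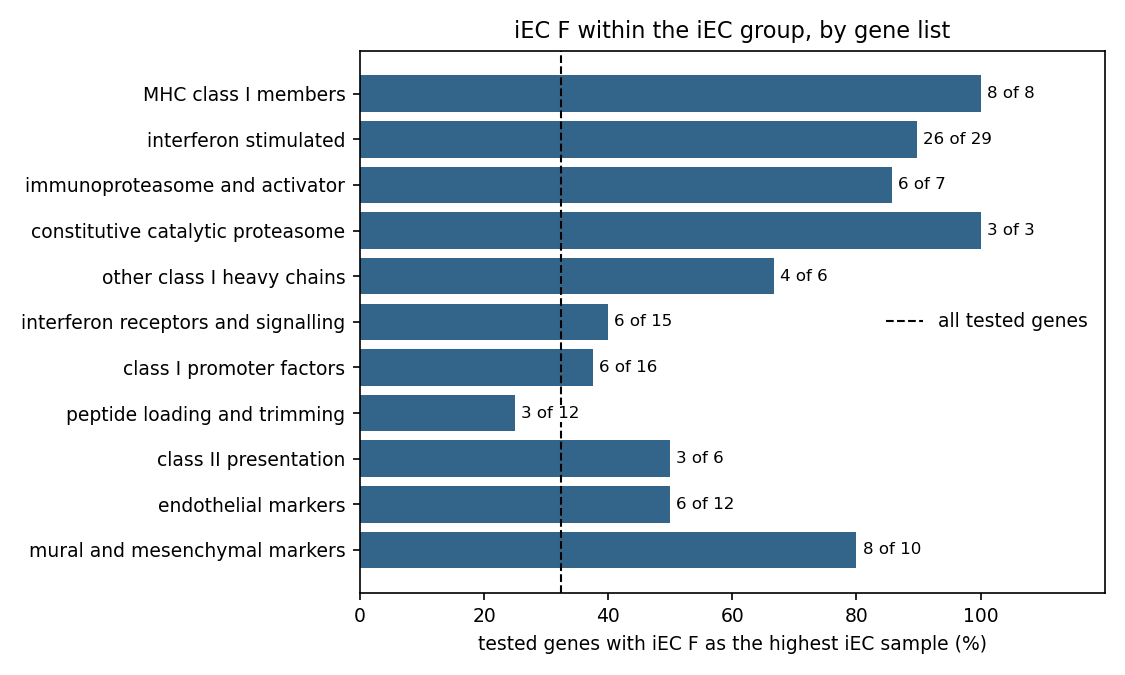
Percent of tested genes in each list for which iEC F was the highest of the 4 iEC samples (bars, with counts), and the same over all tested genes (dashed line, 32.4%). The class I members (8 of 8) and the interferon-stimulated genes (26 of 29) lie far to the right of the line, and peptide loading and trimming genes (3 of 12) to its left.

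The remaining genes of the class I route were read from lists of 51 genes, of which 44 were tested and 8 called by edgeR, 3 higher and 5 lower in iREC, a share below the 25.0% of all genes. Their median log2 fold change was -0.05. The clearest changes were in heavy chains with other tasks. FCGRT, the neonatal Fc receptor chain that pairs with B2M and recycles IgG and albumin, rose from 65.8, 69.1, 80.1 and 126 CPM in iEC C, D, E and F to 223, 285, 306 and 185 CPM in iREC. Its groups did not overlap (log2 fold change 1.55 ± 0.24; edgeR adjusted p 0.00178). MICA, a stress ligand of the receptor NKG2D that binds neither peptide nor B2M, fell from 64.7 ± 6.44 CPM in iEC to 32.7 ± 3.23 in iREC (log2 -0.98 ± 0.12; adjusted p 0.000578 by edgeR). Both calls held under all 18 alternatives. The count of 8 changed when single libraries were left out. It was 3 without iEC C, 3 without iEC D, 4 without iEC E, 5 without iREC C, 2 without iREC D and 4 without iREC E. In the same order, the share called over all genes was 19.7%, 22.9%, 18.3%, 22.1%, 17.0% and 19.1%, each also below 25.0%.

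Among 12 genes of peptide loading and trimming, 2 rose and 1 fell, a share equal to the 25.0% called over all tested genes. ERAP1, the aminopeptidase that trims peptides in the endoplasmic reticulum, rose from 74.0 ± 8.66 CPM in iEC to 102 ± 4.25 in iREC (adjusted p 0.0169 by edgeR). TAPBPL, a tapasin-like peptide editor, rose from 5.0 ± 1.21 CPM in iEC to 10.2 ± 3.68 in iREC (adjusted p 0.0317 by edgeR). SEC61A1, the channel of the endoplasmic reticulum, fell from 546 ± 45.6 CPM in iEC to 408 ± 50.6 in iREC (adjusted p 0.0408 by edgeR). The ERAP1 call was lost when iEC C, iEC D or iREC D was omitted (adjusted p up to 0.0551), that of TAPBPL on omitting any sample but iEC C, iREC C and iREC F (up to 0.0852), and that of SEC61A1 on omitting any but iREC F (up to 0.127). Without the filter on low counts, ERAP1 and SEC61A1 were not called either.

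The immunoproteasome subunits PSMB8, PSMB9 and PSMB10 replace the constitutive PSMB5, PSMB6 and PSMB7 under interferon, and none of the 6 was called. PSMB8 had 11.1, 9.59, 17.1 and 39.2 CPM in iEC C, D, E and F and 15.0, 24.3, 18.0 and 22.6 CPM in iREC (edgeR adjusted p 0.942). PSMB9 was at 0.584, 0.189, 0.945 and 3.65 CPM in iEC and 0.979, 3.49, 3.47 and 5.02 CPM in iREC (log2 fold change 1.29 ± 0.79; edgeR adjusted p 0.266). iEC F was the highest iEC sample for both. Without it, PSMB9 was called (log2 fold change 2.48; edgeR adjusted p 0.0343) and PSMB8 was not (0.66; adjusted p 0.108). TAP1 overlaps PSMB9 on the opposite strand over 8770 bases, at a mean of 36.5 against 2.29 CPM, so PSMB9 values are uncertain if counting ignored strand. PSMB10 was 6.86 ± 3.89 and 7.05 ± 1.03 CPM (edgeR adjusted p 0.942). PSMB5 was 209.6 ± 44.1 CPM in iEC and 153 ± 24.1 in iREC (adjusted p 0.0912 by edgeR).

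Each immune subunit was also set against its constitutive counterpart within a library, a ratio that needs no scaling. PSMB8 made up 5.39%, 5.53%, 7.51% and 12.7% of PSMB8 plus PSMB5 counts in iEC C, D, E and F, and 8.37%, 13.6%, 13.2% and 11.5% in iREC. PSMB9 made up 0.854% ± 0.887 of PSMB9 plus PSMB6 counts in iEC and 2.86% ± 1.47 in iREC, and PSMB10 3.78% ± 1.40 and 5.29% ± 0.679 of PSMB10 plus PSMB7 counts. All 3 mean shares were higher in iREC and all 3 overlapped between groups. A share also rises when the constitutive subunit falls. The folds, iREC over iEC, were 1.04 for PSMB8, 2.44 for PSMB9 and 1.03 for PSMB10. They were 0.729 for PSMB5, 0.813 for PSMB6 and 0.766 for PSMB7, with none called. The exact two-sided permutation p-values of the PSMB8, PSMB9 and PSMB10 shares were 0.114, 0.0571 and 0.114, each 0.114 after adjustment over the 4 shares. On deposited FPKM, the difference between groups went from 3.86 to 2.45 percentage points for PSMB8 and from 2.01 to 0.969 for PSMB9. POMP, which assembles proteasomes, fell from 158 ± 17.9 CPM in iEC to 114 ± 19.0 in iREC (adjusted p 0.0438 by edgeR), a call lost on omitting any sample but iEC E and iREC F (adjusted p up to 0.0986) and without the filter.

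Of 17 factors that act on class I promoters, 16 were tested, 0 rose and 2 fell, where 13.2% of all tested genes were higher and 11.7% lower. NFYA, a subunit of the CCAAT-binding factor NF-Y, fell from 57.0 ± 5.79 CPM in iEC to 41.4 ± 3.90 in iREC (adjusted p 0.0244 by edgeR), a call lost without iEC C, iEC E, iREC D or iREC E (adjusted p up to 0.0755) and without the filter. IRF2, an interferon regulatory factor, fell from 26.2 ± 1.85 CPM in iEC to 18.6 ± 3.0 in iREC (adjusted p 0.0384 by edgeR), a call lost on omitting any sample but iEC F and iREC E (up to 0.116), without the filter, under 2 of 3 other scalings, and without F in both groups. IRF1 was 15.6 ± 4.25 and 17.9 ± 1.82 CPM, and RFX5, which binds the X box with NLRC5, 47.1 ± 11.5 and 58.2 ± 1.94 CPM. Neither was called (edgeR adjusted p 0.499 and 0.221).

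Of 44 tested genes of interferon signalling and response, 14 were called by edgeR, 8 higher and 6 lower in iREC, where 25.0% of all tested genes were called, 13.2% higher and 11.7% lower. Their median log2 fold change was 0.02. The split changed with single samples. Without iEC F 12 were higher and 2 lower, and IFNGR2, SAMD9, SAMD9L and DDX58 were no longer called lower. Their calls were also lost without iEC E or without iREC C. Of 8 fits with a sample left out, IFNGR2 lost its call in 7, SAMD9L in 6, and SAMD9 and DDX58 in 5 each. Without F in both groups 13 were higher and 2 lower. BST2, or tetherin, rose from 0.389, 1.77, 1.48 and 5.29 CPM in iEC C, D, E and F to 30.6, 49.3, 60.1 and 40.5 CPM in iREC (log2 4.35 ± 0.61; adjusted p by edgeR 0.00101). GBP1, a guanylate-binding protein, rose from 0.488 ± 0.826 CPM in iEC to 13.1 ± 3.86 in iREC, and EPSTI1 from 0.716 ± 0.984 to 15.4 ± 1.09 (adjusted p by edgeR 0.00726 and 0.00383). iEC F was the highest iEC sample for all 3 of these genes, yet below every iREC sample. JAK1, the kinase shared by the interferon receptors, fell from 787 ± 183 CPM in iEC to 268 ± 50.9 in iREC (adjusted p 0.000718 by edgeR), and USP18, which restrains interferon receptor signalling, from 20.6 ± 6.36 to 6.57 ± 3.53 CPM (edgeR adjusted p 0.0112). Calls for these 5 genes held in all 18 alternatives. Without iEC E the called genes of the 44 were 7, and without iREC D or iREC E 9 each. Over all genes, 18.3%, 17.0% and 19.1% were called in these fits.

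Class II presentation, which is not built on B2M or TAP, was low, with its genes in the table summing to 27.1 to 31.3 CPM in iEC and 31.9 to 39.6 CPM in iREC. Of 12 listed genes, 6 were tested and 2 called, both higher, where 13.2% of all tested genes were higher. CIITA, the class II counterpart of NLRC5, averaged 1.49 ± 0.349 CPM in iEC and 3.03 ± 0.834 in iREC (edgeR adjusted p 0.0473), a call lost on omitting any sample but iREC F (adjusted p up to 0.116), with limma-voom, without the filter and with library size as the only scaling. HLA-DMA, a class II peptide editor, rose from 0.128 ± 0.104 CPM in iEC to 0.984 ± 0.354 in iREC (adjusted p 0.0106 by edgeR), and its iEC counts were 0, 4, 2 and 2 against 10 to 24 in iREC. Of 12 genes of class I turnover and escape, 1 rose and 1 fell, fewer than the 25.0% called over all tested genes. B3GNT5, a glycosphingolipid synthesis enzyme, fell from a mean of 17.2 ± 5.34 CPM in iEC to 1.89, 2.63, 1.52 and 9.46 CPM in the iREC samples (adjusted p 0.0228 by edgeR), a call lost on omitting iEC E, iEC F, iREC C, iREC D or iREC E (up to 0.0704). MARCH8, a membrane-bound ubiquitin ligase, rose from 39.7 ± 9.14 CPM in iEC to 82.6 ± 17.4 in iREC (adjusted p 0.00549 by edgeR).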

How the data were processed

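Messenger RNA was sequenced in 4 iEC and 4 iREC samples, after poly-T selection and dUTP second-strand synthesis per the labels' protocols. fastp, HISAT2 2.0.5 and hg38 are named in the submitters' processing notes; the counting program and its strand setting are not given in the sources used here. The authors deposited 1 table with raw read counts, normalized signal (counts divided by a size factor per sample), FPKM, log2 fold changes and p-values. All 30386 genes matched GENCODE release 29 (GRCh38) in identifier, start and end. The smallest gene total is 2 counts.

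The counts were analysed with edgeR 4.0.16: filterByExpr, TMM scaling, glmQLFit and glmQLFTest, all 8 samples, group as the only term, Benjamini-Hochberg adjustment over 15330 genes, threshold 0.05. CPM values use the TMM-scaled totals, with a prior count of 2 before taking log2. The SE of an edgeR log2 fold change is its absolute value divided by the square root of the F statistic of its test. Intervals of fold changes are 95% and were built from this SE. Library totals of 13739364 to 16971865 set the floor of 3 counts, and floors cover counting error only, since no molecular identifiers are named. Shares within a library were compared by exact two-sided permutation tests. Deposited FPKM served to compare levels between genes and as an alternative for the shares. The test was tried on data simulated from these samples (14990 genes), in which 200 genes were changed. There edgeR recovered 2.99% of genes changed 1.5-fold, 34.3% of those changed 2-fold and 71.0% of those changed 4-fold. Of its calls, 9.21% were false. In the data 25.0% of tested genes were called. With fewer changed genes the Benjamini-Hochberg adjustment is stricter, so these shares do not measure recovery in the data.

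Alternatives were DESeq2 1.42.0, limma-voom (limma 3.58.1), 3 other scalings, no filter, a stricter filter (1 CPM in every sample of either group, mean count 50), protein-coding genes only, the replicate letter as a block, each sample left out, deposited FPKM for the shares and, added after the values were seen, letter F removed from both groups. Named genes were the 9 members, up to 3 called genes per direction from each list, the proteasome subunits PSMB5 to PSMB10, IRF1, IRF2, RFX5 and CIITA as genes of related role and the 5 genes nearest in profile. The members, lists and motifs were chosen with earlier results of these data known. Some genes of the lists are counted but not reported here by name.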

Additional observations from a re-analysis of the deposited data

Results flagged for a closer look

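Dixon's criterion at the 95% level was applied to log2 CPM or shares in 126 groups of 4 (59 named genes and 4 shares, in each group of samples), where chance gives about 6, and 5 values stood apart. None of the class I members was among them. RFX5, the X box factor, was 55.3 CPM in iREC F against 59.0 to 59.2 CPM in the other iREC samples, a small step in a tight group. Both DECR1 (66.2 CPM against 50.1 to 52.5) and SPAG16 (13.0 CPM against 9.89 to 10.2), named for a profile like that of class I, were high in iREC F. TAGLN, a smooth muscle gene, was 58.1 CPM in iEC F against 25.3 to 27.8 CPM in the other iEC samples. PECAM1, an endothelial marker, was 491 CPM in iREC F against 814 to 852 CPM in the other iREC samples.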

How the results depend on the processing

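The count of class I members called was 0 under 7 of 10 alternatives that omitted no single sample; it was 1 with DESeq2 (HLA-F), 1 with the replicate letter as a block (HLA-B, log2 fold change 0.71, edgeR adjusted p 0.0294) and 1 with F removed from both groups (HLA-B). Leaving out 1 sample at a time gave 0 to 2 members called, 2 to 8 other class I genes, 7 to 14 interferon genes and 2660 to 4214 genes in all. The 8 other class I genes called went to 3 without a filter and 5 with the replicate block. The labels state no pairing by letter. Deviations of same-letter samples correlated at 0.168, -0.0794, 0.0291 and 0.25 across genes for C, D, E and F. Not every pair passed 0.1, and iEC D correlated best with iREC C, but F with F was the highest of all pairs. Whether some letters were prepared together cannot be told from these values. With the block TAPBPL, SEC61A1, NFYA, IRF2 and CIITA were among the genes no longer called (adjusted p 0.0683, 0.0769, 0.0608, 0.0683 and 0.0904 by edgeR). The block gave 3334 calls in all and 10 interferon genes, and sign flips within letters gave p of 0.125, 0.25, 0.125 and 0.25 for the HLA-C, PSMB8, PSMB9 and PSMB10 shares, where 4 pairs allow no p below 0.125.

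Signs changed for 7 named genes, none of them called, when a sample was left out. Log2 fold changes over these fits ran from -0.047 to 0.37 for HLA-C, -0.019 to 0.47 for B2M, -0.13 to 0.62 for TAP1, -0.20 to 0.29 for NLRC5, -0.19 to 0.66 for PSMB8, -0.14 to 0.51 for PSMB10 and -0.038 to 0.35 for DECR1. The cause was not tested. Other scalings moved the median of all genes by at most 0.032 on the log2 scale. Depth limits HLA-F, PSMB9, HLA-DMA, GBP1, EPSTI1 and PTPRC, which had iEC samples at 3 counts or fewer, as did the markers LUM and KRT7.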
